A study of Durio zibethinus with 9 samples.

Results

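Durian is a climacteric fruit, whose pulp softens, sweetens and gains its odour in a short phase that ethylene drives. Small heat shock proteins bind unfolding proteins in heat, drying and other stress, and in plants they are also made in development, for example in ripening fruit and maturing seed. Heat stress transcription factors of the A class switch such genes on.

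The genes described here are 73 of the 39453 reference genes that were above 0 in at least 1 library of durian (Durio zibethinus) pulp. They were chosen from their measured levels. The lowest of the 3 ripening-stage libraries had to reach an FPKM of 10, where FPKM is fragments per kilobase of transcript corrected for how many fragments the library had mapped, and had to be at least 4 times the highest of all young-stage and mature-stage libraries. A total of 77 genes met both thresholds and 4 of them were left out by name. Since these values chose the genes, a high level at ripening is a description of them and not a result.

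The study sequenced poly(A) RNA from pulp of the cultivar D24 (a clone) collected 90 days after anthesis from young fruits (YS), at 120 days from mature fruits (MS) and at 127 days from ripe fruits (RS). Each stage has 3 libraries, stated to be biological triplicates. For RS, mature fruits were held at room temperature until they ripened naturally, so age and time off the tree cannot be told apart between RS and MS. Each library is a bulk sample of pulp parted from husk and seed, in which fewer cells of a type and less RNA per cell cannot be told apart. No list of pulp markers was at hand, no gene of the seed marker list was named in the data, and 2 genes of the green tissue list were named, neither of them among the 73. Their summed FPKM was 1.94, 1.85 and 1.23 in YS, 0.248, 0.404 and 0.646 in MS and 3.997, 3.88 and 1.80 in RS. Of the 2, 0 were called between RS and MS and 1 was called higher at RS than at YS, and their part in the results was not tested.

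The libraries held 2350 to 3553 Mb of mapped bases, estimated from the median ratio of mean depth per base to FPKM over genes. RS_03 stood apart, with 15171 genes reaching an FPKM of 1, against 19123 to 21667 in the other 8 libraries, and with 26.3% of its reference-gene FPKM in its top 10 genes against 8.34% to 12.4% in the others. The 3 MS libraries were close to one another. In genes of short span and low coverage the spread between 2 MS libraries was 0.989 to 1.23 times the spread that counting alone gives, against 3.69 to 4.55 times between YS libraries. Between RS_01 and RS_02 it was 1.36 times, and in the pairs of these with RS_03 it was 2.79 and 2.85 times. Only in MS were all pairs of libraries close to counting. Counts that involve MS are therefore also given after the MS values were averaged into a single sample.

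The 73 genes took 0.135%, 0.0889% and 0.0519% of all reference-gene FPKM in YS_01, YS_02 and YS_03. The share was 0.196%, 0.196% and 0.195% in the MS libraries and 1.66%, 1.71% and 1.94% in RS_01, RS_02 and RS_03. Mean FPKM at RS ran from 11 to 1513 over the genes, with a median of 64.9, and 25 genes averaged 100 or more. The ratio of the lowest RS value to the highest YS or MS value had a median of 6.64 and ran from 4.06 to 157. It was 10 or more in 21 genes, 20 or more in 14 and 50 or more in 5.

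The name of the set, genes switched on only at ripening, held in full for few of them. Only 9 of the 73 stayed under an FPKM of 1 in all 6 YS and MS libraries. For 4 of these a YS or MS table also lists assembled loci over the gene that sum to an FPKM of 1 or more. For LOC111285889 (69.4 in YS_01) and LOC111276593 (33.6 in YS_02) the locus also runs over neighbouring genes. Its FPKM there is not that of the gene alone. The loci of LOC111278164 and LOC111278572 summed to at most 1.66 and 2.08 in YS and MS. In 30 genes at least 1 YS or MS library was at an FPKM of 10 or more, and 57 genes reached an FPKM of 1 in at least 3 of these 6 libraries. Most of the genes were thus already measurable before ripening and stood several times higher at RS.

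**Figure D1:**
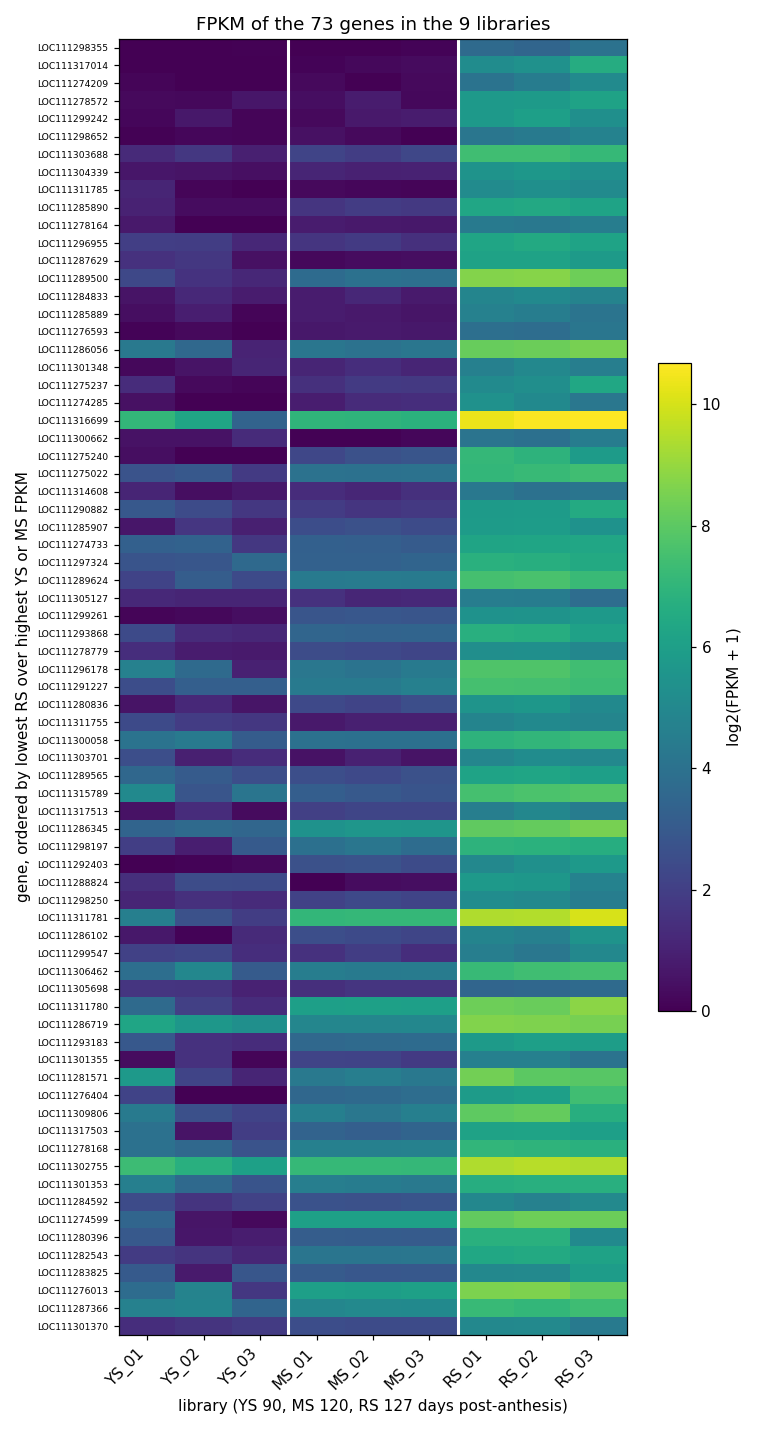
FPKM of the 73 genes (down the page, ordered by lowest RS over highest YS or MS FPKM) in the 9 libraries (across, YS, MS, then RS), as colour on the log2(FPKM + 1) scale. The RS columns are the brightest in every gene because the genes were chosen for it, while the YS and MS columns run from dark at the top, with 9 genes under an FPKM of 1, to plainly coloured further down.

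All 73 genes were tested, and each passed the filter (an FPKM of 1 in at least 3 of 9 libraries) through its RS values. All 73 were called higher at RS than at MS, where 3.95% of the 21598 tested genes were called higher, and higher at RS than at YS, where 2.89% were. None was called lower, where 5.26% and 9.36% of the tested genes were at RS against MS and against YS. The rule used both comparisons, so nothing is read from these counts. With MS averaged to 1 sample 45 were called higher at RS than at MS, against 0.588% of the tested genes, and 0 lower, against 0.269%.

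Close to the floor of the rule lay LOC111305698 (lowest RS FPKM 10.2) and LOC111298355 (10.2) inside it, and LOC111303699 (9.75) and LOC111318723 (9.67) outside it. Close to the ratio lay LOC111301370 (4.06) and LOC111287366 (4.09) inside it, and LOC111282845, a probable nucleoredoxin 1 (3.93), and LOC111307048 (3.91) outside it. The genes just outside differed little from those just inside in the values that set the border.

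**Figure D2:**
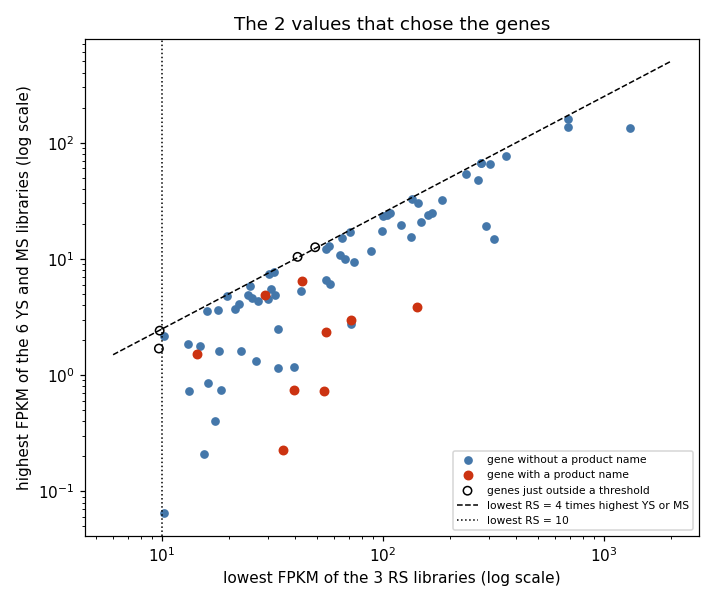
Lowest FPKM of the 3 RS libraries (horizontal) and highest FPKM of the 6 YS and MS libraries (vertical) for the 73 genes, both on log scales, with genes that have a product name in red, the others in blue and the 4 genes just outside a threshold as open circles. The dashed line is the ratio of 4 and the dotted line the floor of 10, and the named genes lie mostly well below the dashed line, with LOC111317014 the lowest of them.

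Product names came from the tables of the study, which name genes it had picked on these same samples, so the names are not an even sample of the set. Of the 73 genes, 9 had a product name and 64 had none. The 9 names fell into stress proteins, a heat stress transcription factor and a few enzymes.

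Of the small heat shock proteins, LOC111303688 encodes a class I heat shock protein-like protein, a class that works in the cytosol. It was at an FPKM of 1.42, 2.37 and 0.916 in the YS libraries, 3.60, 2.82 and 3.87 in the MS libraries and 167, 171 and 143 in the RS libraries. The lowest RS library was 36.9 times the highest of the others, in gene values that leave out the loci assembled over this gene (given below with its group). LOC111299242 is named for a class II protein of this family, of 17.1 kDa. It was at 0.144, 0.628 and 0.106 in YS, 0.224, 0.661 and 0.747 in MS and 51.7, 64.0 and 39.5 in RS. All 6 YS and MS libraries were under an FPKM of 1.

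LOC111287629 encodes a small heat shock protein, chloroplastic-like, a form directed to plastids. Its FPKM was 1.84, 2.36 and 0.399 in YS, 0.165, 0.267 and 0.313 in MS and 69.8, 69.9 and 55.0 in RS. All 3 MS libraries lay below all 3 YS libraries. LOC111303701, named for another class I protein, of 17.5 kDa, had 4.89, 0.934 and 1.57 in YS, 0.423, 0.952 and 0.467 in MS and 29.1, 36.1 and 30.4 in RS. Its MS and YS libraries overlapped, and the gene table of another durian assembly (Kanyao) lists it as a pseudogene.

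LOC111299261 encodes a heat stress transcription factor A-2-like protein, in Arabidopsis a factor that sustains the heat shock response. It had an FPKM of 0.115, 0.185 and 0.320 in YS, 6.08, 6.44 and 5.95 in MS and 43.2, 44.3 and 53.6 in RS. Its 3 stages did not overlap. Between MS and YS, the comparison that the rule did not rank, it was higher at MS by 2.57 ± 0.17 on the log2(FPKM + 1) scale (SE, n = 3 each, limma adjusted p = 0.00023). The adjusted p ran from 0.00021 to 0.018 over the alternatives, and 13 of 14 alternatives kept the call, the exception being 5 added to each FPKM. The 4 small heat shock protein genes were not called in that comparison, with log2 differences of 0.82 in LOC111303688, which is under the fold threshold of 1.5 (limma adjusted p = 0.039), 0.26 in LOC111299242, -0.93 in LOC111287629 and -0.95 in LOC111303701. Whether the factor and the small heat shock protein genes differed in this step was not tested. The study had itself listed the factor as raised from YS to MS in these samples, so its call here repeats that choice. The 4 small heat shock protein genes it had listed as raised from MS to RS.

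**Figure D3:**
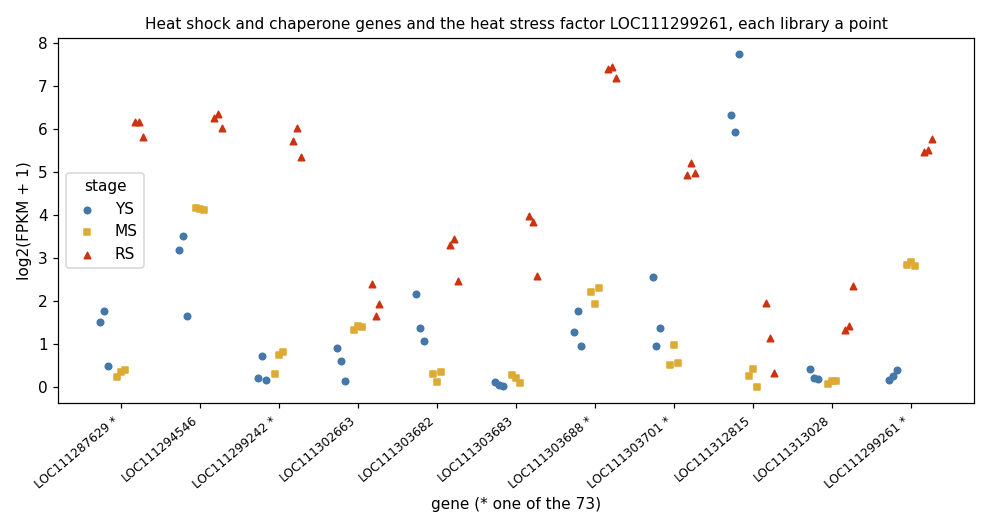
log2(FPKM + 1) of the 10 genes of the heat shock and chaperone list and of the factor LOC111299261, with 1 point per library (circles YS, squares MS, triangles RS) and an asterisk at the genes that belong to the 73. In the 4 small heat shock genes with an asterisk the MS points lie near or among the YS points, in LOC111299261 they lie between YS and RS, and in LOC111312815 the YS points are the highest.

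The list of heat shock and chaperone genes, taken by key words from product names, held 10 genes, all tested, of which 4 are among the 73. Over the list 8 genes were called higher at RS than at MS and 0 lower, against 3.95% higher and 5.26% lower of all tested genes. The median log2 difference was 3.04 against -0.40 over all tested genes. The rule fixed the direction of the 4 in advance, and they enter both the count and the median, so nothing is read from these. Of the 6 genes outside the set, 4 were called higher at RS than at MS. They were LOC111294546 (an exchange factor of hsp70, fes1-like), LOC111313028 (a chaperone regulator of the BAG family) and the class I small heat shock genes LOC111303682 and LOC111303683. LOC111303683 missed the floor of the rule through RS_03, with 14.5, 13.2 and 4.97 in the RS libraries and at most 0.209 in the YS and MS libraries.

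The list did not move as 1 block. LOC111312815 (chaperone protein dnaJ 11, chloroplastic-like), a partner protein of hsp70 chaperones, was at 79.2, 59.8 and 211 in YS, 0.197, 0.332 and 0 in MS and 2.83, 1.19 and 0.254 in RS. It was the 1 gene of the list called lower at MS than at YS, and 0 of the list were called higher there. The names of the list are those the study gave to genes picked on these samples, so the list is not independent evidence of its direction.

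Of the enzymes, LOC111317014 encodes a probable mannitol dehydrogenase, of a family that oxidises alcohols. It was listed in no YS table and stood at an FPKM of 0.0602, 0.189 and 0.227 in MS and 35.4, 41.4 and 96.8 in RS. RS_03 was the highest library, and the lowest RS value was 155 times the highest MS value. LOC111278572, an inorganic pyrophosphatase 2-like gene, had 0.207, 0.178 and 0.546 in YS, 0.315, 0.733 and 0.189 in MS and 53.8, 55.2 and 69.3 in RS. Both were under an FPKM of 1 in all 6 libraries before ripening.

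LOC111296955 is named as an E3 ubiquitin ligase ATL31-like gene, a ligase that in Arabidopsis acts in the response to carbon and nitrogen supply. It had 3.01, 2.86 and 1.29 in YS, 2.17, 2.48 and 1.78 in MS and 77.1, 88.5 and 71.6 in RS, with MS and YS overlapping, and the Kanyao gene table lists it as a transcribed pseudogene. LOC111300662, a stress enhanced protein 2, chloroplastic-like gene, belongs to a family of thylakoid proteins related to the light-harvesting proteins. It had 0.439, 0.416 and 1.52 in YS, 0.0588, 0.0574 and 0.126 in MS and 16.1, 14.4 and 21.3 in RS. Its MS libraries all lay below its YS libraries.

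The lists of other pathways gave few named genes to the set, and the rule itself took part in this. Of the genes left out by name, 2 were on the cell wall list, 3 on the redox list and 1 on the abscisic acid and dehydration list. Of these, 1 of the cell wall genes and all 3 redox genes had met both thresholds. The last gene left out, which the text of the study names as methionine gamma-lyase-like, was on none of these lists. The cell wall list held 69 tested genes and the ethylene list 66, of which 0 each belong to the 73. At RS against MS 10 cell wall genes (14.5%) were called higher and 6 (8.7%) lower, against 3.95% and 5.26% of all tested genes. Of the ethylene list 7 (10.6%) were called higher and 10 (15.2%) lower. The redox list had 40% higher and 8% lower, and the abscisic acid and dehydration list (8 tested) 50% and 0%. The sugar and starch list had 18% higher and 10% lower, and the sulfur and methionine list 18.2% and 27.3%. All these lists hold genes that the study picked on these samples, so the shares are a description. The sugar and starch list (50 tested) and the sulfur and methionine list (11 tested) held 0 members as well. The transcription factor list (77 tested) held 1, LOC111299261, and the redox list (25 tested) held 1, LOC111317014. Since 64 of the 73 have no name, such genes may stand among them under a LOC number.

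The 5 genes with the highest mean at RS had no product name. LOC111316699 was far above the rest, with an FPKM of 133, 76.4 and 9.45 in YS, 126, 123 and 114 in MS and 1310, 1585 and 1643 in RS. It was abundant at every stage but in YS_03. LOC111311781 followed with 23.8, 5.30 and 2.82 in YS, 132, 136 and 137 in MS and 688, 701 and 1044 in RS. LOC111302755 had 160, 105 and 65.8 in YS, 142, 143 and 137 in MS and 686, 751 and 686 in RS, so its MS libraries lay within the range of YS. LOC111286719 averaged 55.4 ± 19.7 in YS, 29.4 ± 0.193 in MS and 385 ± 23.6 in RS (SD, n = 3 each). LOC111289500 averaged 2.41 ± 1.40 in YS, 13.8 ± 1.28 in MS and 385 ± 59.5 in RS.

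The 5 genes without a product name that had the highest ratio were LOC111298355, LOC111274209, which is listed as uncharacterized, LOC111298652, LOC111304339 and LOC111311785. LOC111298355 was listed in 1 YS table at 0.0298 and in 1 MS table at 0.0649, and had 12.1, 10.2 and 15.5 in RS. Its level was thus low even when present. LOC111274209 had at most 0.210 in YS and MS and 15.6, 21.3 and 33.6 in RS.

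Some genes were missing from a table, which was read as 0. There were 22 such cases of a gene and a library, in 10 genes for at least 1 YS table and in 4 genes for at least 1 MS table. LOC111317014 was the 1 gene missing from all 3 YS tables, and 0 genes were missing from all 3 MS tables. In 0 of the 22 cases did a locus assembled anew in that library overlap the gene on its strand. Such loci, which are listed apart from the gene values, overlapped 71 of the 73 genes in at least 1 YS or MS table. They need not be further signal. At RS they overlapped 69 genes in all 3 libraries, and the median ratio of locus FPKM to gene FPKM was 1. In LOC111299242 and LOC111298652 the locus had the gene's own start, end and FPKM in every table that lists the gene. With the FPKM of overlapping loci added to the gene's own, 17 of the 73 no longer met the rule. Among them were the 3 genes of the heat shock group described below and 1 of the 9 lowest genes, LOC111285889. Where a locus repeats the gene, this sum counts the gene's signal again. A locus can span several genes, so its FPKM is not that of the gene alone. At RS every gene was listed in all 3 tables, with a mean depth per base of at least 25.0.

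The step between MS and YS was looked at in the same genes. The rule does not rank these stages, but it caps the highest single library of each. In these genes the YS libraries spread more than the MS libraries (given below), so the cap can hold YS means lower than MS means. Its part in the counts was not tested. The counts are thus a description and do not show that the genes had begun to change before ripening. At MS 18 of the 73 (24.7%) were called higher than at YS by limma, against 5.43% of all tested genes, and 1 was called lower, against 10.2% of all tested genes. The other 54 were not called, which does not show that they stayed level. With MS averaged to 1 sample, 8 (11%) were called higher, against 1.39%, and 0 lower, against 2.9%. Of the 73, 57 met the filter on YS and MS libraries alone, and a fit filtered in that way called 18 of them higher and 1 lower, against 5.63% and 10.5% of the 20811 genes it tested.

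The median log2 difference of MS over YS was 0.82 in the 73 and 0.06 over all tested genes. It was positive in 61 of the 73. The share of all tested genes with a positive one was not counted, so nothing is read from that number. In 38 of the 73 (52.1%) all MS libraries lay above all YS libraries, against 31.3% of all tested genes. In 5 (6.85%) all MS libraries lay below, against 27.2%. In the other 30 the stages overlapped, and nothing is read from that number.

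LOC111274599 had the largest difference. It was at 66.8, 66.6 and 66.2 in MS, against 10.3, 0.516 and 0.217 in YS, a log2 difference of 4.62 ± 0.80 (SE, n = 3 each, limma adjusted p = 0.0055, 0.000087 to 0.035 over the alternatives). The MS libraries were alike, while YS_01 stood far above YS_02 and YS_03. LOC111282543 was at 17.0, 16.9 and 17.1 in MS, against 2.65, 2.00 and 1.19 in YS, a difference of 2.64 ± 0.23 (limma adjusted p = 0.00051, 0.00040 to 0.021 over the alternatives). LOC111286345 was at 42.9, 47.7 and 46.5 in MS, against 9.87, 12.0 and 10.6 in YS, a difference of 1.98 ± 0.17 (limma adjusted p = 0.00050, 0.00032 to 0.044 over the alternatives). In both the YS libraries were close together, and all 14 alternatives kept the call.

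LOC111292403 was at 5.20, 5.56 and 4.37 in MS, against 0, 0.0858 and 0.164 in YS, and LOC111275240 was at 3.87, 5.24 and 6.05 in MS, against 0.312, 0.00816 and 0 in YS. Both were close to 0 in YS and low in MS, and LOC111275240 reached 140, 120 and 57.3 in RS. LOC111311781, LOC111311780, LOC111276404, LOC111276013 and LOC111289500 were higher at MS by 4.02, 3.68, 2.96, 2.59 and 2.19 on the log2 scale. The call of LOC111276013 was lost when any 1 of the MS libraries was left out, and with MS averaged the calls of LOC111276404, LOC111276013 and LOC111289500 were lost.

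The 1 gene called lower at MS was LOC111288824. It was at 0, 0.271 and 0.317 in MS, against 1.71, 4.59 and 4.48 in YS, a difference of -1.88 ± 0.32 (SE, n = 3 each, limma adjusted p = 0.0052), and its call was lost with MS averaged and with 5 added to each FPKM. At RS it stood at 52.6, 49.8 and 25.5, so this gene was lowest at MS. In LOC111311755, LOC111287629, LOC111300662 and LOC111286719 all MS libraries also lay below all YS libraries, but none of these was called.

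**Figure D4:**
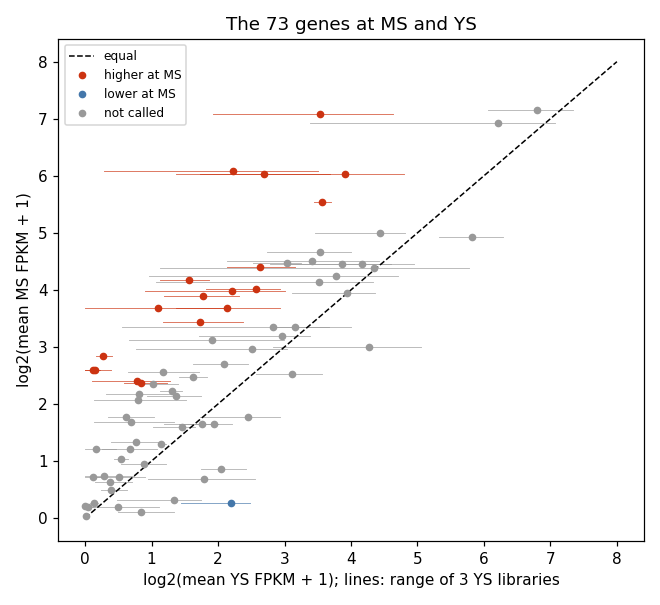
Mean log2 level at MS (vertical, log2 of mean FPKM + 1) against that at YS (horizontal, same scale) for the 73 genes, with a line for the range of the 3 YS libraries. The 18 genes called higher at MS (red) lie above the dashed line of equality, the 1 called lower (blue) below it, and the long lines show how far the YS libraries spread.

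The YS libraries differed in these genes more than the libraries of the other stages. Over the 63 genes listed in all 3 YS tables, the highest YS value was 3.34 times the lowest at the median, against 1.23 times in MS and 1.29 times in RS. In 23 genes the YS libraries differed more than 5-fold. These fold values were not taken over all tested genes. The YS libraries also spread 3.69 to 4.55 times counting in genes of short span and low coverage, so a wide YS spread is not particular to the 73. YS_01 was the highest YS library in 39 of the 73, against 30.9% of all tested genes. The part of the YS spread in the step between MS and YS was not tested beyond leaving out each library, with which 15 to 22 genes were called higher.

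The rule used RS_03, so its values in these genes are a description. Over all tested genes the median log2 ratio of RS_03 to the mean of RS_01 and RS_02 was -1.04, and 4.33% were highest in RS_03. Over the 73 the median was -0.13, from -1.76 to 1.5, with 30 genes highest in RS_03, 37 lowest and 6 between. The rule asks for an FPKM of 10 in RS_03 too. Among the 4863 tested genes that reach 10 in all RS libraries the median was -0.59, with 8.88% highest in RS_03, against 41.1% of the 73. Without that library 139 genes met it, all 73 among them, and the 66 others had a median of -1.94.

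LOC111276404, LOC111317014 and LOC111275237 stood highest in RS_03 relative to RS_01 and RS_02. LOC111276404, which the Kanyao table lists as a miscellaneous RNA, had 57.1, 63.4 and 171 in RS. LOC111280396 lay at the other end with 109, 109 and 32.2.

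The genes were short. The median span from start to end in the files was 1497 bp, from 438 to 9469 bp, against 3905 bp over all tested genes, and 37 of the 73 (50.7%) spanned under 1500 bp, against 8.65%. Among genes that reach 10 in all RS libraries the median span was 3262 bp and 12.4% were under 1500 bp. The share of such genes that belong to the set was 6.12% under 1500 bp, 1.71% from 1500 bp, 0.825% from 2500 bp and 0.166% from 5000 bp.

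Span moved with RS over the tested genes at large. In genes under 1500 bp the median log2 ratio to the MS mean was 0.18 in RS_01, 0.24 in RS_02 and -0.43 in RS_03. In genes of 5000 bp or more it was -0.27 in RS_01, -0.31 in RS_02 and -1.04 in RS_03. These shifts were under 1 on the log2 scale between the span classes, and the part of span or RNA quality in the set was not tested.

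Of the 73 symbols, 66 matched a gene of the Kanyao table, of which 57 are protein coding, 6 transcribed pseudogenes, 2 pseudogenes and 1 a miscellaneous RNA, and 7 did not match. Protein-coding genes made up 78.1% of the set and 78.9% of all tested genes, so the mix of gene types was close to that at large.

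The genes lay on 24 scaffolds, and 20 of them lay in 8 groups within 50 kb of another of the set. The set is 0.185% of the reference genes. How often as many genes at large lie so close was not counted, so the groups are a description. There are 4 pairs next to each other in gene order. LOC111298355 and LOC111298652 are 15 bp apart on the same strand, with 12.1, 10.2 and 15.5 in RS for the one and 17.4, 19.4 and 25.6 for the other. Both were at 0.403 or less in YS and MS. Whether they are parts of 1 transcript was not tested.

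LOC111311781 and LOC111311780 lie 6667 bp apart on one strand, and LOC111311785 starts 45189 bp from the start of LOC111311781. The FPKM of LOC111311781 was 1.73 to 2.31 times that of LOC111311780 in each of the 9 libraries. Whether the genes share reads was not tested, so both values are uncertain. LOC111311785 differed from both, with 0.196, 0.145 and 0.108 in MS, against 1.16, 0.0923 and 0 in YS.

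The heat shock genes LOC111303688 and LOC111303701 lie in 1 group with the unnamed LOC111304339, on scaffold NW_019167882.1 from base 18817344 to base 18864023 (46.7 kb, build not given in the sources used here). LOC111304339 had 0.561, 0.472 and 0.350 in YS, 1.17, 0.985 and 1.01 in MS and 44.4, 48.8 and 39.6 in RS. Between them lie 16 other reference genes, of which 5 were called higher at RS than at MS. The named one of these 5, LOC111303682, stayed at 8.74, 9.82 and 4.53 in RS. In YS_01 an assembled locus at an FPKM of 2795 covers the 3 genes, from base 18766998 to base 19138117 on their strand, a length of 371120 bp that holds 35 reference genes, of which the highest was at 65.8. In the RS libraries the highest locus over the 3 genes was at 209, 214 and 171. The gene values above leave these loci out. How reads were divided among the genes and loci was not tested, so the values of the group before ripening are uncertain.

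The other groups spanned 5.6 to 62.9 kb and had 0 to 6 other genes between. In the group of LOC111301348, LOC111301353 and LOC111301355, 6 other genes lie between, of which LOC111301352 and LOC111301350 were called higher at RS than at MS. LOC111301352 had 9.43, 6.59 and 1.74 in YS, 19.7, 16.7 and 16.1 in MS and 61.1, 55.8 and 76.5 in RS. LOC111276013 and LOC111276593 hold LOC111276014 between them, and LOC111285889 and LOC111285890 hold LOC111285888 between them, which had 69.2, 39.97 and 40.5 in YS, 40.04, 41.6 and 39.3 in MS and 268, 300 and 231 in RS, and missed the ratio through YS_01. The group of LOC111275237, LOC111274285 and LOC111275240 and the pair LOC111291227 and LOC111298250 were the other ones.

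**Figure D5:**
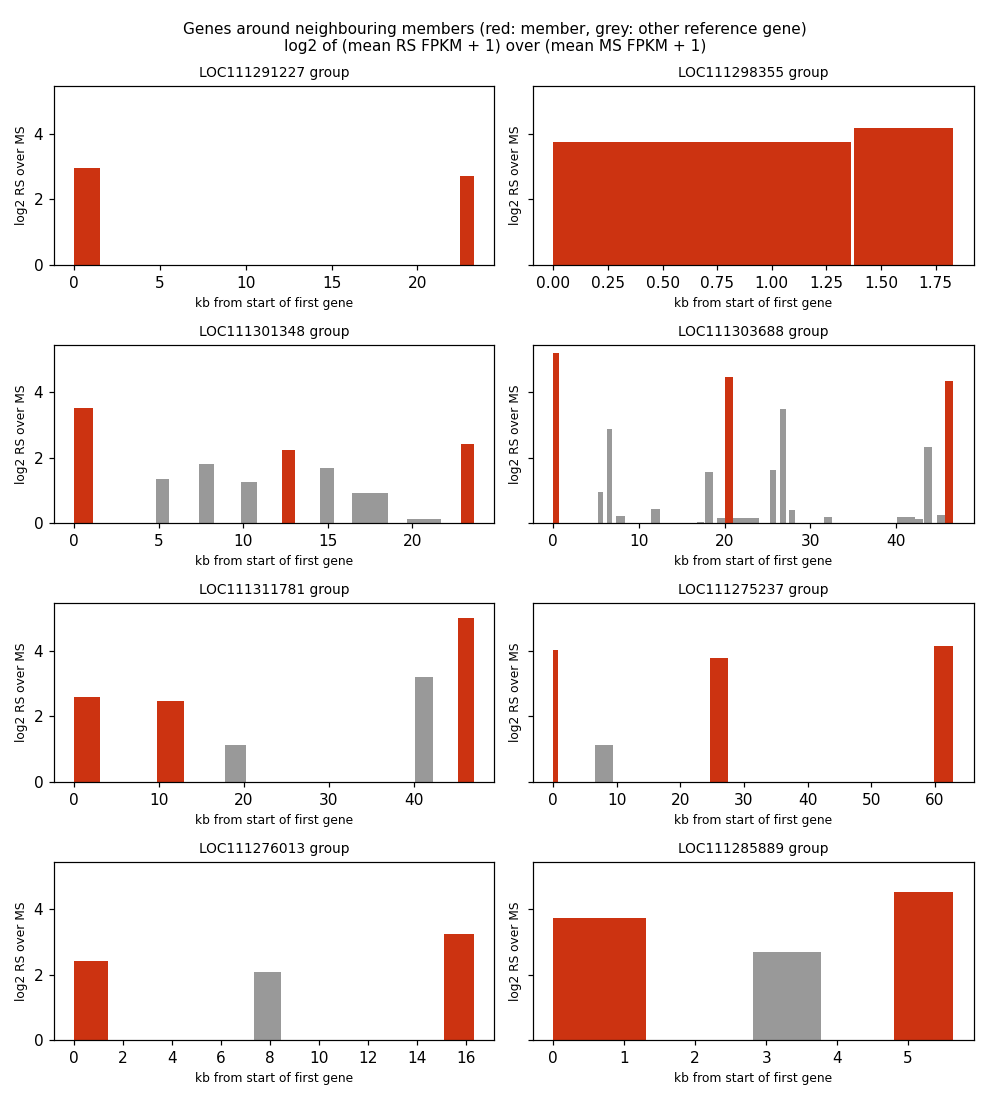
The 8 groups, each a panel, with the log2 of mean RS over mean MS FPKM (1 added to each) of every reference gene drawn as a bar over its place in kb from the start of the first gene. Red bars are genes of the set and grey bars are other genes, and grey bars above 2 stand between red ones in the groups of LOC111303688, LOC111311781, LOC111276013 and LOC111285889.

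The genes around the set were counted after the positions had been seen. Within 50 kb lay 733 other reference genes, of which 417 were tested. Of these, 40 (9.59%) were called higher at RS than at MS by limma, against 3.95% of all tested genes, and 21 (5.04%) lower, against 5.26%. At RS against YS 35 (8.39%) were higher, against 2.89%. The share was 13.5% within 20 kb and 7.11% within 100 kb. With MS averaged to 1 sample it was 1.68%, against 0.588%, and after scaling by size factors it was 13.8%, against 6.54%. In all, 33 of the 73 had such a neighbour. The share of all genes with one was not counted, so nothing is read from this number. The median log2 difference of the neighbours was -0.26, against -0.40 over all tested genes, so most of them did not follow the set. Of the 73, 4 overlap another reference gene, and the part of overlaps in these counts was not tested.

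The neighbours with the largest difference were LOC111315790 and LOC111318631 (dormancy-associated protein homolog 4-like). LOC111315790 had 119, 20.3 and 29.2 in YS, 13.5, 13.5 and 10.5 in MS and 195, 215 and 166 in RS, and lies near LOC111315789, which had 32.2, 6.12 and 16.5 in YS, 8.22, 6.92 and 5.76 in MS and 185, 199 and 218 in RS. Both were low at MS and high at RS, and the first missed the rule through YS_01.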

How the data were processed

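Poly(A) RNA of 9 durian pulp libraries (3 per stage) was sequenced by the authors as paired reads and summarised with StringTie, 1 table per library. Per the labels, the processing tools were FastQC, Trimmomatic, Bowtie and TopHat, while the paper names HISAT2 before StringTie, so the mapper is not certain. The deposited FPKM are StringTie's fragments per kilobase, corrected for mapped fragments. The deposited coverage (signal) is mean depth per base and is not scaled to depth. The deposited TPM column was taken as a score, since its sum is not that of TPM. No read counts were used, so no count model was fitted.

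Reference genes missing from a table were given the value 0, and loci assembled anew in each library were left out. Of 39453 genes, 21598 reached an FPKM of 1 in 3 or more of the 9 libraries and were tested with limma 3.58.1 (R 4.3.3) on log2(FPKM + 1), 2 stages at a time, two-sided, with Benjamini-Hochberg adjustment. A gene was called where the log2 difference was over 1.5 and the adjusted p under 0.05. Fold changes on this scale understate those of low genes. The p-values measure the spread between these libraries only, and the MS libraries spread little more than counting. The fit was tested on simulated data.

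The 73 genes and the gene lists were chosen with earlier results of these data known, and 7 gene names were left out by the rule. The text names the genes with a product name, the 5 unnamed genes highest in ratio, the 5 highest at RS, those called between MS and YS (10 at most), those nearest a threshold and those near another of the set, and a few more chosen after their values were seen. The alternatives were another pseudocount, no filter, a filter on the 2 stages, size factors, a replicate block, assembled loci added, MS averaged and each library left out. Python 3.11.15 with pandas 2.3.3, NumPy 2.4.6 and Matplotlib 3.10.9 was used for the rest.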

Additional observations from a re-analysis of the deposited data

Results flagged for a closer look

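Loci that StringTie assembled outside the reference genes were used in no comparison of the report. Merged over the 9 libraries they numbered 12899, of which 8 met both thresholds of the rule, and 1 of these was listed in no YS or MS table. That locus had an FPKM of 12.5, 15.4 and 15.9 in the RS libraries. The highest of the 8 had 48.0, 9.36 and 22.9 in YS, 11.6, 15.8 and 12.5 in MS and 479, 410 and 337 in RS. They are short, from 234 to 866 bp, and have no annotation in the sources used here.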

How the results depend on the processing

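Of 11 single genes followed between MS and YS under 14 alternatives each, 139 values kept direction and call, 15 lost the call and 0 reversed. Genes higher at MS numbered 18, against 6 with 5 added to each FPKM and 8 with MS averaged to 1 sample (15 to 22 with a library left out). Genes lower at MS numbered 1, against 4 with 0.1 added, 0 with 5 added, 3 with assembled loci added and 0 with MS averaged (1 to 2 with a library left out, 2 without YS replicate 2). Genes higher at RS than at MS numbered 45 with MS averaged. The rule was met by 113 genes after size factors and by 73 to 139 with a library left out, 139 without RS replicate 3. With assembled loci added 86 genes met it, and 17 of the 73 did not. Neighbours higher at RS than at MS numbered 17 with 5 added and 7 with MS averaged, and 37 to 47 with a library left out. By replicate number, the correlation of deviations was -0.004, -0.007 and -0.006 between MS and YS. The MS libraries spread too little for this to show a pairing. Between RS and YS it was -0.160, 0.080 and -0.106. With the replicate block 19 genes were higher and 1 lower at MS. FPKM hold no counts, so no interval for counting error was given. The causes of these changes were not tested.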
